A study of Sus scrofa with 61 samples.

Results

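The genes described here store, release and take back the calcium that makes a muscle fibre contract. They are RYR1, CACNA1S, TRDN, JPH1, ATP2A1, ATP2A2, SLN, CASQ1, CASQ2 and PVALB. They were chosen by name. Every array probe was taken whose gene name, in capitals, or whose symbol in the study's additional gene lists was one of these 10 symbols. The array held 11435 symbols. The study's lists hold probes with an interaction of age with genotype or with a parental genotype in these same data. This gave 56 probes, 1 of them, the ATP2A1 probe A_72_P263042, named by the study's lists alone. After removal of probes that were dim in all groups, 54 probes of 9 genes were kept, and PVALB had no kept probe.

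RNA of the longissimus muscle of single pig fetuses was hybridized alone to 1-colour porcine oligonucleotide arrays, 1 array per fetus. The 4 genotypes were purebred Large White (LW) and Meishan (MS), the reciprocal crosses LWMS, with MS dams and LW sires, and MSLW, with LW dams and MS sires. Each genotype had 8 fetuses at gestational day 90, and day 110 had 9 LW, 7 MS, 8 LWMS and 5 MSLW fetuses. The fetuses carried no treatment or transgene, all were males taken by caesarean, and sows were inseminated with mixed LW and MS semen, so that purebred and crossbred fetuses shared litters. The sow of each fetus is not given in the labels, so littermates were counted as separate fetuses, and the p-values measure the spread between these samples.

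In a resting muscle fibre, calcium is held in the sarcoplasmic reticulum, largely bound to calsequestrin. When the surface membrane is depolarised, the voltage sensor in the transverse tubule opens the ryanodine receptor beside it, calcium leaves the store and the fibre shortens, and the SERCA pumps then return the calcium and the fibre relaxes. Fast and slow fibres use different pumps and calsequestrins, and this machinery is built up as fetal muscle matures.

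Values are log2 intensities after quantile normalization between arrays. A probe's level was not set against that of another probe. Where several probes of a gene were kept, the one with the highest mean over all arrays is called its main probe. A difference was called at an adjusted p below 1% (limma's moderated test, Benjamini-Hochberg over all 42436 kept probes). Where groups are said to overlap or not, this describes the member alone, and no share of all kept probes without overlap is given. Per array, 34346 to 45683 probes were well above background (median 43016 at day 90 and 41318 at day 110), and pairs of arrays of the same group correlated at 0.954 to 0.992. The muscle markers ACTA1, CKM, DES, TTN and MYH3 were well above background on all 61 arrays. Other cell types moved with age too. All 4 fibroblast markers fell (by 1.24 to 1.70 on the log2 scale, mean of the genotypes), and their summed level ran from 18.19 to 18.57 at day 90 and from 16.20 to 17.52 at day 110. At day 110 this sum was 16.20 to 16.58 in MS and 16.84 to 17.52 in LW, and all 4 markers were lower in MS. Of the fast fibre markers, 5 of 6 rose with age and their summed level ran from 19.37 to 20.31 at day 90 and from 20.48 to 20.76 at day 110, and of the slow fibre markers 3 of 5 rose, with sums of 18.43 to 19.17 and 19.03 to 19.51. The part of these shifts in the results below was not tested. In whole muscle, fewer cells of a type and less RNA per cell cannot be told apart.

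Several probes of a gene did not read the same stretch or the same strand, and the sequences show where this matters. For ATP2A1, the pair A_72_P141731 and A_72_P263042 and the pair O1789 and A_72_P127906 are reverse complements over the stretches shown, which are in capitals, 5′ to 3′, so that each pair reads opposite strands of the same piece of DNA.
A_72_P141731: TTTCTGTCATTTATTTTCAATAAATAAGCA
A_72_P263042: TGCTTATTTATTGAAAATAAATGACAGAAA
O1789: TTTCATCTTCTGGATCTGTGACACGGTTC
A_72_P127906: GAACCGTGTCACAGATCCAGAAGATGAAA
The first pair shared 38 bases on opposite strands, of which 30 are shown, and the second pair shared 29. A_72_P263042, the main probe, carries a contig name on the array and the description SERCA1, and its gene symbol came from the study's lists. A_72_P127906 and A_72_P417112 list the RefSeq mRNA of ATP2A1. Which strand of the first pair is transcribed was not settled.

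For ATP2A2, the last 30 bases of 3 probes are shown because these probes differed most in their response, as given below. A_72_P601258 is the main probe and lists class 1 or class 3 mRNAs of the pump, and A_72_P444260 and A_72_P303154 list the RefSeq mRNA but neither class.
A_72_P601258: caaaatgtcatagcttaaataaatgtacaa
A_72_P444260: actaactttagtgatatgttctggtcttga
A_72_P303154: ggcacttcacaatctagtttaaaaaggaaa
For SLN, the brightest probe and O11011 are of equal length and differ by 1 base in 60, G53A counted from 1 at the first base of A_72_P517565, which is the capital in the last 30 bases of each.
A_72_P517565: catgtgaataaagttgtcaaccGcaaaaaa
O11011: catgtgaataaagttgtcaaccAcaaaaaa

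Between day 90 and day 110, 8 of the 9 main probes rose in the mean of the genotypes and none fell, where 72.3% of all kept probes were called (37.3% higher and 35.0% lower). CASQ2 was not called, and the calls of RYR1 and SLN depended on the processing, as given below. The median change of the 9 main probes was 0.57 on the log2 scale, against 0.04 over all kept probes. Within a genotype, LW had 6 main probes that rose (45.3% of all kept probes called, 21.8% higher and 23.5% lower) and MS had 7 (56.7% called, 28.6% higher and 28.1% lower). The crosses had 6 each, LWMS against 50.9% of all probes called (25.1% higher and 25.7% lower) and MSLW against 44.6% (20.8% higher and 23.8% lower). No main probe fell. Over all 54 kept probes, 48 were higher and 1 was lower in the mean of the genotypes. The higher ones include the ATP2A1 probe O1789, which was kept only through its day-110 groups. On each of the 8 slides the mean age change was above 0 for 7 of the 9 main probes, and for CASQ2 and SLN it was above 0 on 7 slides.

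**Figure D1:**
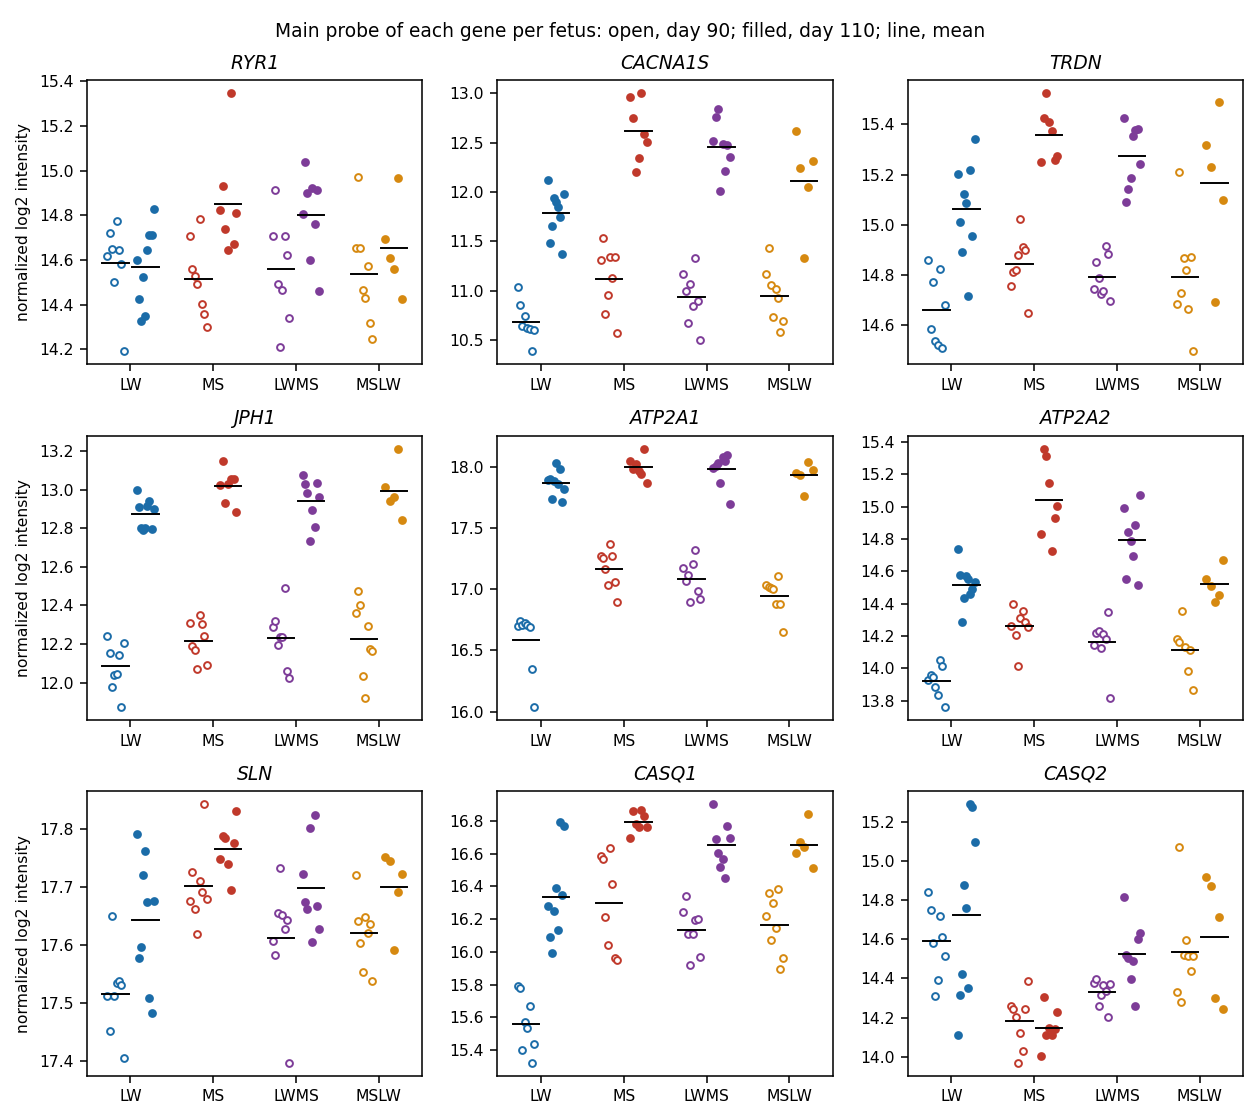
Normalized log2 intensity of the main probe of each of the 9 measured genes, 1 point per fetus, with open points for day 90, filled points for day 110 and a line at the group mean. The days do not overlap in any genotype for JPH1, ATP2A1, ATP2A2 and CASQ1, while RYR1, SLN and CASQ2 overlap in all 4. The share of all kept probes without overlap is not given. Each panel has its own log2 axis.

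CACNA1S, the pore and voltage sensor of the transverse tubule, had the largest change among RYR1, CACNA1S, TRDN and JPH1. In LW its signal ran from 10.39 to 11.04 (median 10.64) at day 90 and from 11.38 to 12.12 (median 11.85) at day 110. In MS it ran from 10.57 to 11.53 (median 11.23) and from 12.21 to 13.00 (median 12.59). The days did not overlap in LW, MS or LWMS. In LWMS the medians were 10.95 (10.50 to 11.33) and 12.48 (12.01 to 12.84). In MSLW the day-90 median was 10.97 (10.59 to 11.43), and the 5 fetuses of day 110 gave 12.62, 12.24, 11.33, 12.05 and 12.31. The fetus at 11.33 lay inside the day-90 range, and the other 4 lay above it. On the log2 scale the rise was 1.1 ± 0.14 (SE) for LW, 1.50 ± 0.15 for MS, 1.52 ± 0.14 for LWMS and 1.16 ± 0.16 for MSLW (limma, adjusted p = 1.36e-09, 3.94e-13, 9.7e-14 and 2.45e-08). The mean rise of 1.32 ± 0.08 equals 2.49-fold.

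RYR1, the calcium release channel that CACNA1S opens, moved far less on its main probe. Its LW fetuses ran from 14.19 to 14.77 (median 14.63) at day 90 and from 14.33 to 14.83 (median 14.60) at day 110. In MS they ran from 14.30 to 14.78 (median 14.51) and from 14.64 to 15.35 (median 14.81). The days overlapped in all 4 genotypes. LW changed by -0.02 ± 0.10 (adjusted p = 0.901), MS by 0.34 ± 0.10 (0.00432), LWMS by 0.24 ± 0.10 (0.0352) and MSLW by 0.11 ± 0.12 (0.421), and the mean of 0.17 ± 0.05 passed the test (0.00334, all from limma). All 4 other RYR1 probes rose in the mean of the genotypes, by 0.25, 0.44, 0.57 and 0.69. The size depended on the scaling: with arrays scaled to their 75th percentile the main probe rose by 0.68 in the mean and by 0.36 in LW, which turned the sign in LW. With the median signal, the deposited values or the normexp correction the calls in MS and in the mean were lost (adjusted p for the mean up to 0.015).

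TRDN encodes triadin, which ties calsequestrin to the release channel, and it rose in each genotype. In LW it ran from 14.51 to 14.86 (median 14.63) at day 90 and from 14.72 to 15.34 (median 15.09) at day 110, and in MS from 14.65 to 15.02 (median 14.85) and from 15.25 to 15.52 (median 15.37). The days overlapped in LW and MSLW and did not in MS and LWMS. In LWMS the medians were 14.77 (14.70 to 14.91) and 15.30 (15.09 to 15.43). In MSLW the day-90 median was 14.77 (14.50 to 15.21), and the day-110 fetuses gave 15.32, 15.23, 14.69, 15.49 and 15.10. The lowest of these 5 lay below the day-90 median. LW rose by 0.40 ± 0.08, MS by 0.51 ± 0.09, LWMS by 0.48 ± 0.08 and MSLW by 0.37 ± 0.10 (limma, adjusted p = 2.97e-05, 6.54e-07, 1.4e-06 and 0.000735). Without 1 of the 5 MSLW fetuses of day 110, replicate 4, the MSLW rise was 0.29 and was no longer called (adjusted p = 0.011).

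JPH1 encodes junctophilin, which holds the reticulum against the tubule, and it rose in each genotype. In LW it ran from 11.87 to 12.24 (median 12.09) at day 90 and from 12.79 to 13.00 (median 12.90) at day 110, and in MS from 12.07 to 12.35 (median 12.22) and from 12.88 to 13.15 (median 13.03). No genotype showed an overlap of the days. The LWMS medians were 12.23 (12.02 to 12.49) and 12.97 (12.73 to 13.08). The MSLW median at day 90 was 12.23 (11.92 to 12.47), against 13.01, 12.94, 12.96, 13.21 and 12.85 in the fetuses of day 110. The changes of 0.79 ± 0.06, 0.80 ± 0.07, 0.71 ± 0.07 and 0.77 ± 0.08 in LW, MS, LWMS and MSLW all passed the test (limma, adjusted p = 6.51e-16, 2.33e-15, 6.69e-14 and 7.21e-13), and the change in MS minus that in LW was 0.01 ± 0.09 (adjusted p = 0.953).

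ATP2A1 encodes SERCA1, the calcium pump of fast fibres. On its main probe LW fetuses ran from 16.04 to 16.74 (median 16.70) at day 90 and from 17.71 to 18.03 (median 17.88) at day 110, and MS fetuses from 16.89 to 17.37 (median 17.21) and from 17.86 to 18.15 (median 17.98). The days were apart in each genotype. In LWMS the medians were 17.09 (16.89 to 17.32) and 18.02 (17.70 to 18.09). In MSLW the day-90 median was 17.01 (16.65 to 17.11), and the fetuses of day 110 gave 17.94, 17.93, 17.76, 18.03 and 17.97. At day 90 all 8 LW fetuses lay below all 8 MS fetuses, and at day 110 these breeds overlapped. LW rose by 1.29 ± 0.08, MS by 0.83 ± 0.08, LWMS by 0.89 ± 0.08 and MSLW by 0.98 ± 0.09 (limma, adjusted p = 1.5e-21, 1.85e-13, 5.43e-15 and 3.44e-14).

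The 6 ATP2A1 probes changed by very different amounts. A_72_P127906, which lists the RefSeq mRNA, ran from 6.66 to 7.50 (median 7.10) in LW at day 90 and from 11.66 to 13.46 (median 12.42) at day 110, and in MS from 8.00 to 9.13 (median 8.48) and from 13.17 to 14.26 (median 13.52). A_72_P417112, which lists it too, had medians of 9.40 (8.82 to 9.91) and 11.46 (11.02 to 12.33) in LW, and of 10.23 (9.35 to 10.57) and 12.51 (11.94 to 12.98) in MS. The ranges of the days were far apart on both. The mean rise was 4.92 ± 0.12 on A_72_P127906 and 2.22 ± 0.11 on A_72_P417112, that is 30.3-fold and 4.67-fold (limma, adjusted p = 1.71e-40 and 4.29e-26), beside 1.00 ± 0.04 or 2.0-fold on the main probe. CUST_452_PI427286967 shares 59 bases of the same strand with A_72_P127906, so it is no independent reading of it, and it rose by 5.17 ± 0.24. On 1 MSLW array of day 90 it was not well above background.

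The probes on the opposite strands of these stretches split. A_72_P141731, the reverse complement of part of the main probe, had medians of 11.61 (11.02 to 11.77) and 10.45 (9.96 to 10.86) in LW and of 11.29 and 9.89 in MS. It was lower at day 110 in each genotype without overlap, and it fell by 1.29 ± 0.06 in the mean (limma, adjusted p = 6.34e-28). O1789, on the strand opposite to A_72_P127906, was called higher at day 110 and was dim at day 90. It was kept only through its day-110 groups. Its call, and its part in the mean over the ATP2A1 probes, are thus not independent of the filter. None of the 8 LW arrays of day 90 and all 9 of day 110 read it well above background. With the processed signal its LW rise was at least 7.65-fold, taking the dimmest probe well above background on each array as the floor. This bound holds for that signal alone, since with the median signal, the deposited values or the normexp correction the mean rise over the genotypes was 2.08, 2.10 and 1.45 on the log2 scale. Averaged over all 6 probes, the dim one included, ATP2A1 rose by 2.65. Without A_72_P141731 and O1789 it rose by 3.33, though which strand of the first pair is transcribed was not settled.

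**Figure D2:**
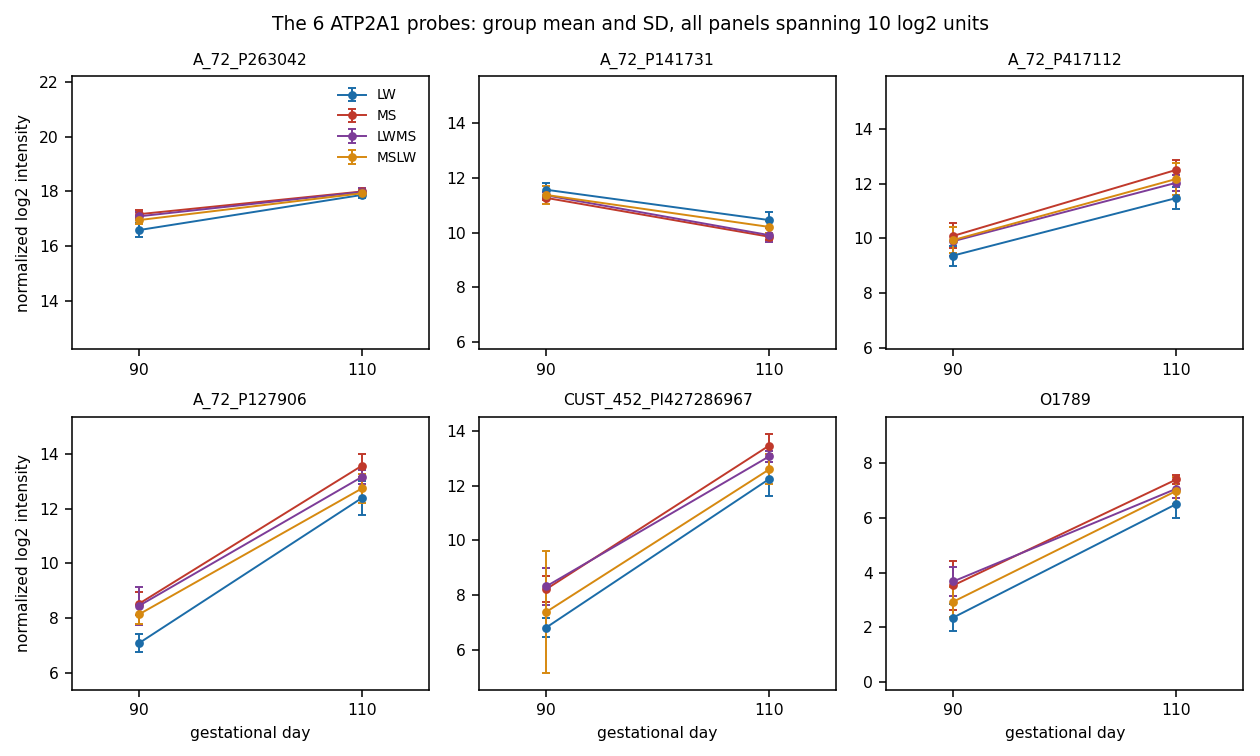
The 6 ATP2A1 probes at gestational days 90 and 110, as group mean and SD of normalized log2 intensity, with 1 line per genotype and each panel spanning the same number of log2 units. The panel of A_72_P141731, on the strand opposite to the main probe, falls (mean change -1.29) and the other 5 panels rise, A_72_P127906 by 4.92.

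ATP2A2 encodes SERCA2, the pump of slow fibres and of most other cells. Its main probe ran in LW from 13.76 to 14.05 (median 13.94) at day 90 and from 14.28 to 14.74 (median 14.53) at day 110, and in MS from 14.01 to 14.40 (median 14.27) and from 14.72 to 15.36 (median 15.00). No genotype had overlapping days on it. In LWMS the medians were 14.20 (13.82 to 14.35) and 14.82 (14.51 to 15.07). In MSLW they ran from 13.87 to 14.35 (median 14.13, 7 fetuses, since 1 spot was marked as non-uniform), and the day-110 fetuses gave 14.55, 14.51, 14.41, 14.45 and 14.67. LW rose by 0.59 ± 0.08, MS by 0.78 ± 0.08, LWMS by 0.63 ± 0.08 and MSLW by 0.41 ± 0.09 (limma, adjusted p = 2.58e-09, 3.05e-12, 7.43e-10 and 0.000197). With non-uniform spots kept, the calls in LW and LWMS were lost (adjusted p = 0.0248 and 0.0218).

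All 21 ATP2A2 probes rose in the mean of the genotypes, by 0.20 to 1.09. Many of them overlap in sequence, and O4122 holds the same 60 bases as A_72_P505287, so they are not 21 separate readings. The 14 probes that list class 1 or class 3 mRNAs and not the RefSeq mRNA rose by 0.58 to 0.92, and each rose in each genotype. The 4 probes that list both the RefSeq mRNA and class 1 rose by 0.84 to 1.09. The 2 probes that list the RefSeq mRNA but neither class stood apart in LW. There A_72_P444260 ran from 9.06 to 10.28 (median 9.90) at day 90 and from 9.42 to 10.61 (median 9.83) at day 110. In MS it ran from 10.13 to 10.68 (median 10.31) and from 11.31 to 11.96 (median 11.52). The days overlapped in LW and were apart in MS. In LWMS the medians were 9.94 (9.54 to 10.32) and 11.08 (10.24 to 11.45), and in MSLW the day-90 median was 10.14 (9.70 to 10.52), against 10.70, 10.27, 10.32, 10.29 and 10.45 at day 110. The crosses overlapped between days. Its change was 0.08 ± 0.16 in LW (limma, adjusted p = 0.675) and 1.20 ± 0.17 in MS (6.24e-09), and the difference of these changes, 1.12 ± 0.23, passed the test (0.000529). The other such probe, A_72_P303154, changed by 0.14 in LW and rose by 0.51 in MS, and the difference of 0.37 was not called.

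**Figure D3:**
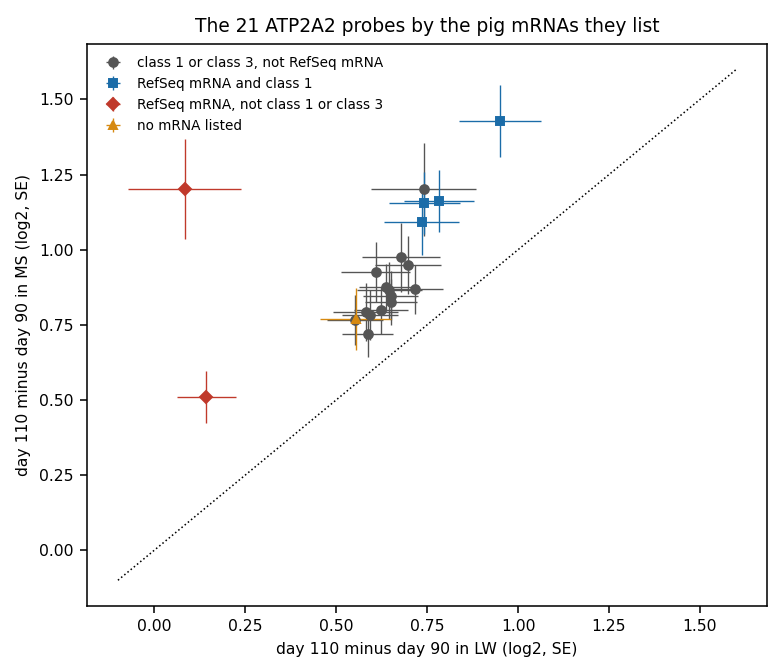
Age change (day 110 minus day 90, log2, bars are SE) of the 21 ATP2A2 probes in LW on the horizontal axis and in MS on the vertical axis, marked by the pig mRNAs each probe lists, with a dotted line of equal change. The probes that list the RefSeq mRNA but neither class 1 nor class 3 lie at 0.08 and 0.14 in LW and at 1.20 and 0.51 in MS, left of all the others.

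SLN encodes sarcolipin, a small inhibitor of the SERCA pumps. Its main probe ran from 17.40 to 17.65 (median 17.52) in LW at day 90 and from 17.48 to 17.79 (median 17.67) at day 110, and from 17.62 to 17.84 (median 17.69) and 17.69 to 17.83 (median 17.77) in MS. The days overlapped in each genotype. The changes of 0.13 ± 0.04, 0.06 ± 0.05, 0.09 ± 0.05 and 0.08 ± 0.05 in LW, MS, LWMS and MSLW did not pass the test one by one (limma, adjusted p = 0.0132, 0.228, 0.101 and 0.192), and their mean of 0.09 ± 0.02 did (0.000652). Of the 12 SLN probes, 9 rose in the mean of the genotypes, and A_72_P502769 rose most, by 0.50 ± 0.06. No member spot was saturated on any array. The other 11 probes changed by 0.05 to 0.19. O11011, which differs from the main probe by 1 base, was among them with 0.06 ± 0.03 and was not called (0.0278). The call on the main probe was lost with the median signal, the deposited values and the normexp correction (adjusted p up to 0.0206).

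The small changes of SLN, RYR1 and CASQ2 depended on the scaling. Quantile normalization makes the distribution of all arrays equal, and the main probes of RYR1, CASQ2 and SLN lay at or above percentile 96.9, 96.5 and 99.5 of all probes on each array. Over the 756 kept probes with a mean log2 value above 16 the median age change was -0.12 after quantile normalization and 0.40 with the 75th percentile scaling, and over the 1246 probes between 14 and 16 it was -0.14 and 0.35. Under the latter scaling all 9 main probes rose, with SLN at 0.58, CASQ2 at 0.58, RYR1 at 0.68, TRDN at 0.97, JPH1 at 1.02, ATP2A2 at 1.09, CASQ1 at 1.12, CACNA1S at 1.47 and ATP2A1 at 1.52. After quantile normalization the brighter probes of a gene tended to have lower age changes, and the main probe is the brightest. The Spearman correlation was -0.66 for ATP2A1, -0.50 for ATP2A2, -0.80 for CASQ1, -0.90 for RYR1 and -0.80 for SLN. With the 75th percentile scaling these were -0.66, -0.03, -0.60, 0.70 and -0.86.

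CASQ1 encodes the main calsequestrin of fast fibres. In LW it ran from 15.32 to 15.79 (median 15.55) at day 90 and from 15.99 to 16.79 (median 16.28) at day 110, and in MS from 15.95 to 16.64 (median 16.31) and from 16.70 to 16.87 (median 16.78). The days were apart in all 4 genotypes. The LWMS medians were 16.15 (15.92 to 16.34) and 16.65 (16.45 to 16.90). In MSLW the median was 16.18 (15.89 to 16.38) at day 90, and the day-110 fetuses gave 16.60, 16.67, 16.64, 16.84 and 16.51. The rise was 0.77 ± 0.10, 0.50 ± 0.10, 0.51 ± 0.10 and 0.49 ± 0.11 in LW, MS, LWMS and MSLW (limma, adjusted p = 5e-10, 2.62e-05, 9.62e-06 and 0.00022). The 3 other kept CASQ1 probes rose by 0.56, 1.00 and 1.19 in the mean, and the one at 0.56 shares 59 bases with the main probe. The last CASQ1 probe was well above background on 10 of 61 arrays and was not kept.

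CASQ2, the calsequestrin of heart and slow fibres, was the member whose main probe was not called between the days. It ran from 14.31 to 14.84 (median 14.60) in LW at day 90 and from 14.11 to 15.29 (median 14.76) at day 110, and from 13.97 to 14.38 (median 14.22) and 14.00 to 14.30 (median 14.14) in MS. The days overlapped in each genotype. The mean change was 0.09 ± 0.06 (limma, adjusted p = 0.161). On the other CASQ2 probes it was 0.17 ± 0.10 (A_72_P285234, 0.0947) and 0.54 ± 0.09 (A_72_P306059, 3e-07), so the probes disagreed on whether CASQ2 rose. The mean of the 3 probes rose by 0.27 (0.00071).

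PVALB encodes parvalbumin, a soluble calcium buffer of fast fibres. Its single probe was well above background on 10 of 61 arrays. These were 1 LW array of day 110, 3 MS arrays of day 90 and 2 of day 110, and 3 LWMS arrays of day 90 and 1 of day 110. No MSLW array was among them. No fold is given for it.

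MS and LW differed at both days, mostly with MS higher. At day 90, 4 of the 9 main probes were higher in MS (ATP2A1, ATP2A2, CASQ1 and SLN) and CASQ2 was lower, where 12.8% of all kept probes were called, 6.23% higher and 6.61% lower. At day 110, 4 were higher (ATP2A2, CACNA1S, CASQ1 and TRDN) and CASQ2 was lower again, where 29.0% were called, 13.7% higher and 15.2% lower. The median difference of the 9 main probes was 0.18 at day 90 and 0.28 at day 110, against 0.00 and 0.01 over all kept probes. Over the 54 kept probes, 23 were higher and 2 lower in MS at day 90, and 37 higher and 3 lower at day 110. Of the 37, 21 were probes of ATP2A2 and 5 of SLN, many of which share sequence, so these counts are not of separate readings. Of the 6 fast fibre markers 2 were higher and 1 lower in MS at day 90, with summed levels of 20.04 to 20.22 in MS and 19.89 to 20.16 in LW. At day 110, 2 of 6 were higher in MS, with sums of 20.64 to 20.76 in MS and 20.48 to 20.63 in LW. Of the slow fibre markers 0 of 5 were called at either day. The fibroblast sum was lower in MS at day 110, as given above. The part of these markers in the breed differences was not tested.

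CASQ1 and CASQ2 differed between the breeds in opposite directions. At day 90 CASQ1 was higher in every MS fetus than in any LW fetus (ranges above), by 0.73 ± 0.10 or 1.66-fold (limma, adjusted p = 5.18e-08), and at day 110 it was higher by 0.46 ± 0.10 with overlap (0.000183). The 3 other CASQ1 probes gave 0.73 to 0.82 at day 90 and 0.50 to 0.74 at day 110, all called. CASQ2 was lower in MS by 0.41 ± 0.12 at day 90 (0.00914) and by 0.57 ± 0.12 at day 110 (0.000101). Its probe A_72_P285234 ran from 13.84 to 14.30 (median 14.05) in LW and from 12.33 to 13.60 (median 13.00) in MS at day 90, and from 13.34 to 14.83 (median 14.22) and 12.52 to 13.52 (median 12.88) at day 110. The breeds were apart at day 90 on this probe and overlapped slightly at day 110, with differences of -1.07 ± 0.19 and -1.29 ± 0.19 (1.35e-05 and 1.42e-07). A_72_P306059 gave -0.14 and -0.12, neither called. On each slide that held both breeds, 8 at day 90 and 6 at day 110, CASQ1 was higher in MS and the main probe of CASQ2 was lower. With the 75th percentile scaling the CASQ2 differences were -0.40 and -0.34 and were no longer called (adjusted p = 0.0374 and 0.0462). The day-90 call was also lost under other alternatives, among them the median signal and the deposited values (adjusted p = 0.0261 and 0.0256).

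The pumps differed between the breeds too. ATP2A2 was higher in MS by 0.34 ± 0.08 at day 90 and by 0.53 ± 0.08 at day 110 (limma, adjusted p = 0.00112 and 3.96e-07). At day 110 all 21 ATP2A2 probes were higher in MS. Among them A_72_P444260 had the largest difference, 1.59 ± 0.16 or 3.0-fold (8.98e-12), and its 7 MS fetuses lay above all 9 LW fetuses. ATP2A1 was higher in MS on its main probe at day 90, by 0.58 ± 0.08 (5.39e-08), and not called at day 110 (0.13 ± 0.08, adjusted p = 0.206). The mean of its 6 probes was higher in MS by 0.64 at day 110 and was called (0.000195). Both of its mRNA-listing probes were higher in MS at day 110, and 1 of them at day 90 too. A_72_P127906 gave 1.44 ± 0.23 and 1.18 ± 0.23 at the 2 days (2.82e-06 and 4.54e-05), and A_72_P417112 gave 0.72 ± 0.21 and 1.03 ± 0.21 (0.0103 and 9.57e-05). The opposite-strand probe A_72_P141731 was lower in MS at day 110 by 0.61 ± 0.11 (1.78e-05). When non-uniform spots were kept, the differences of the main ATP2A2 probe were no longer called at day 90 or day 110 (adjusted p = 0.344 and 0.0829).

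Of the release genes, CACNA1S was higher in MS by 0.84 ± 0.15 or 1.79-fold at day 110 without overlap (limma, adjusted p = 5.28e-06), and the 0.43 ± 0.14 of day 90 was not called (0.0264). TRDN was higher by 0.30 ± 0.08 at day 110 (0.00348) and differed by 0.18 ± 0.08 at day 90 (0.123). JPH1 differed by 0.13 ± 0.07 and 0.14 ± 0.07 (0.171 and 0.0806), and RYR1 by -0.07 ± 0.10 and 0.28 ± 0.10 (0.711 and 0.0224). Of the other RYR1 probes, A_72_P458783 was higher in MS at both days (0.59 and 0.56) and O7166 at day 110 (0.54). SLN was higher by 0.18 ± 0.05 at day 90 (0.00191) and differed by 0.12 ± 0.05 at day 110 (0.0286), and the day-90 call was lost with the median signal, the deposited values and the normexp correction (0.0161, 0.0156 and 0.0108). With the 75th percentile scaling, ATP2A1 and CASQ1 alone were called at day 90 (SLN 0.07 and ATP2A2 0.30, adjusted p = 0.632 and 0.0215), and 8 main probes at day 110, all higher in MS, with ATP2A1 at 0.46, SLN at 0.45 and RYR1 at 0.56 among them.

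**Figure D4:**
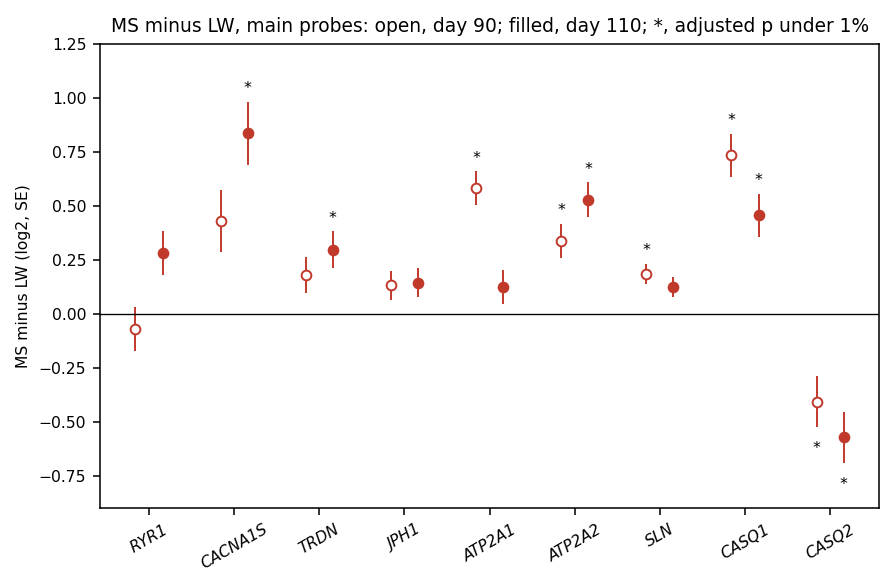
MS minus LW on the main probe of each gene (log2, bars are SE), with open points for day 90, filled points for day 110 and a star where the adjusted p was below 1%. CASQ2 lies below 0 at both days (-0.41 and -0.57), CASQ1 and ATP2A2 lie above 0 with a star at both, and the main probe of ATP2A1 drops from 0.58 to 0.13. With the 75th percentile scaling that probe gave 0.48 and 0.46, and other ATP2A1 probes differed from it, as given above.

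A difference between the age changes of MS and LW was called for 1 of the 9 main probes, ATP2A1 (-0.45 ± 0.11, limma, adjusted p = 0.00379), and for 2 of all 54 kept probes, where 5.95% of all kept probes were called, 2.56% higher and 3.39% lower. The share of the 54 probes lay below this background. Over all called probes 43.0% were higher, and 63.7% with the 75th percentile scaling. The ATP2A1 probe, A_72_P263042, was named by the study's lists alone. These lists hold probes with an interaction of age with genotype or with a parental genotype in these same data. Its call is thus not independent of that selection. The ATP2A1 difference held on 1 of the 6 ATP2A1 probes and depended on the processing. It was -0.02 with the 75th percentile scaling (adjusted p = 0.956) and -0.20 for the mean of all kept ATP2A1 probes (0.565), and with LW and MS fetuses alone it stood at the same size with an adjusted p of 0.012. The second called probe was A_72_P444260 of ATP2A2, whose difference ran from 1.07 to 1.21 over the alternatives and was called in each. With the 75th percentile scaling the main probes of ATP2A2 (0.51) and RYR1 (0.65) were called as well.

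Between the crosses no member was called. In limma's test of MSLW against LWMS, 0 of the 54 kept probes passed on either day, and 2 probes of day 90 and 18 of day 110 had an unadjusted p under 0.05. For this and the other unadjusted counts in this paragraph, no share of all kept probes at the same threshold is given. They are therefore not read as a result. Of the 54 probes 21 were of ATP2A2, many of which share sequence, so these counts are not of separate readings. Of all kept probes 0.500% were called at day 90 (0.351% higher and 0.148% lower) and 0.912% at day 110 (0.542% and 0.370%). For the mean of both crosses against that of both purebreds limma also called 0 of 54, with 8 and 2 at an unadjusted p under 0.05. Here 0.0495% of all kept probes were called at day 90 (0.0495% higher and 0.00% lower) and 0.0778% at day 110 (0.0754% and 0.00236%). In the model with maternal and paternal genotype, the interaction of age with the paternal genotype was called on 0 of 54 probes by limma, with 1 at an unadjusted p under 0.05 (0.462% of all called, 0.137% higher and 0.325% lower). The interaction with the maternal genotype was called on 1 of 54, with 27 at an unadjusted p under 0.05, where 3.05% of all kept probes were called (1.16% higher and 1.89% lower). That probe was A_72_P444260, with 0.97 ± 0.16 for a MS dam (limma, adjusted p = 7.37e-05) and 0.15 ± 0.16 for a MS sire (0.736). In the group values given above, its day-110 medians were 11.52 and 11.08 with MS dams (MS and LWMS), and 9.83 and 10.32 with LW dams (LW and MSLW). The sow itself was not entered in the fit, so a maternal genotype effect and an effect of single sows cannot be told apart. ATP2A1's main probe gave -0.28 ± 0.08 for the maternal genotype (0.0202), which was called with the slide as a block (-0.31, adjusted p = 0.000691). This probe came from the study's lists of probes with an interaction alone.

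Members were also compared within an array, which asks whether a pair of genes changed unequally and sets no level of a gene against another. The 18 tests of 3 pairs were exact two-sided permutation tests adjusted together, with the 1% threshold. ATP2A1 rose more than ATP2A2 in LW, by 0.69 (exact p = 4.11e-05, adjusted 0.00037), and in MSLW, by 0.58 (exact p = 0.00126, adjusted 0.00189). In LWMS the difference was 0.26 (adjusted exact p = 0.0615) and in MS 0.05 (0.676). At day 110 the ATP2A1 minus ATP2A2 difference was lower in MS than in LW by 0.40 (adjusted exact p = 0.0011, and 0.0261 with the 75th percentile scaling). On their main probes CASQ1 rose more than CASQ2 in LW (0.64), MS (0.53) and LWMS (0.32). The adjusted exact p-values were 0.000555, 0.000932 and 0.0004. The MSLW difference of 0.41 was not called (0.022). This depended on the CASQ2 probe. For LWMS the 2 other CASQ2 probes changed by 0.28 and 0.69, beside 0.51 on CASQ1's main probe. Those of MS changed by -0.07 and 0.49, beside 0.50, and those of MSLW by 0.33 and 0.51, beside 0.49. Within LW they changed by at most 0.46, beside 0.77. The 3 other CASQ1 probes rose by 0.50 to 1.09 in LWMS. These other probes were not compared within arrays. CASQ1 minus CASQ2 was higher in MS than in LW by 1.14 at day 90 and by 1.03 at day 110 (both adjusted exact p = 0.0004). SLN changed less than ATP2A1 in each genotype, with differences of 1.16 for LW, 0.77 for MS, 0.81 for LWMS and 0.90 for MSLW (adjusted exact p from 0.00037 to 0.00127). These pairs were compared on their main probes, so the ATP2A1 values are those of A_72_P263042. That probe was named by the study's lists of probes with an interaction alone. The within-array tests that involve ATP2A1 are thus not independent of that selection. On both ATP2A1 probes that list the RefSeq mRNA, MS minus LW at day 110 was larger than on the main ATP2A2 probe, as given above. The sign of that ATP2A1 minus ATP2A2 difference thus depends on the ATP2A1 probe. In MS both probes also rose more with age than the main ATP2A2 probe. The within-array comparison was not run on them.

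By limma's moderated F test over the 8 groups (Bonferroni, 1%), 6 of the 9 main probes passed, where 44.9% of all kept probes did. They were ATP2A1, ATP2A2, CACNA1S, CASQ1, JPH1 and TRDN. Among 4 linear models compared by BIC, ATP2A1 was placed in the model with an interaction of age and genotype. Its main probe came from the study's lists of probes with an interaction. Neither this placement nor the pass of ATP2A1 in the F test is thus independent of that selection. ATP2A2, CACNA1S, CASQ1, JPH1, SLN and TRDN were placed in the model with age and genotype added. RYR1 was placed in the model of age alone and CASQ2 in that of genotype alone.

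Other genes of calcium handling were taken from a list of 51 genes, of which 37 had a kept probe. Averaged over the genotypes 13 of them rose and 13 fell with age, with a median change of -0.00, where 37.3% of all kept probes were higher and 35.0% lower. Of the 7 other genes of the release unit, CACNG1, an auxiliary subunit of the voltage sensor, rose by 0.99, STAC3, an adaptor between sensor and channel, by 0.86 and JPH2, a second junctophilin, by 0.72. RYR3, a ryanodine receptor of immature muscle, fell by 2.47 and ASPH, whose locus encodes junctin, fell by 0.97. In the lumen of the store, HRC, a histidine-rich calcium binder, and SRL, which encodes sarcalumenin, rose by 0.68 each and TMEM38A, a counter-ion channel, rose by 0.26, while the general calcium binders CALR and CALU of the endoplasmic reticulum fell by 1.00 and 0.58.

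Of the pumps, exchangers and their regulators, ATP2A3, a SERCA pump of non-muscle cells, rose by 1.42 and PLN, the phospholamban that inhibits SERCA2, by 1.16. The other 3 of these 5 genes fell, SLC8A1, the sodium-calcium exchanger, by 1.37, and the plasma membrane pumps ATP2B4 and ATP2B1 by 1.13 and 0.50. Of the 4 genes of other release and entry, ITPR1, an inositol trisphosphate receptor, fell by 0.35 and no other was called. Of the 12 sensors and calcineurin genes 5 rose and 3 fell. The largest of these changes were in S100A1, a calcium binding protein that acts on the release channel (fell by 1.80), and RCAN1, an inhibitor of calcineurin (fell by 1.76). Of the 3 tubule genes, DYSF and CAV3, which encode dysferlin and caveolin of the muscle membrane, fell by 0.22 and 0.13.

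**Figure D5:**
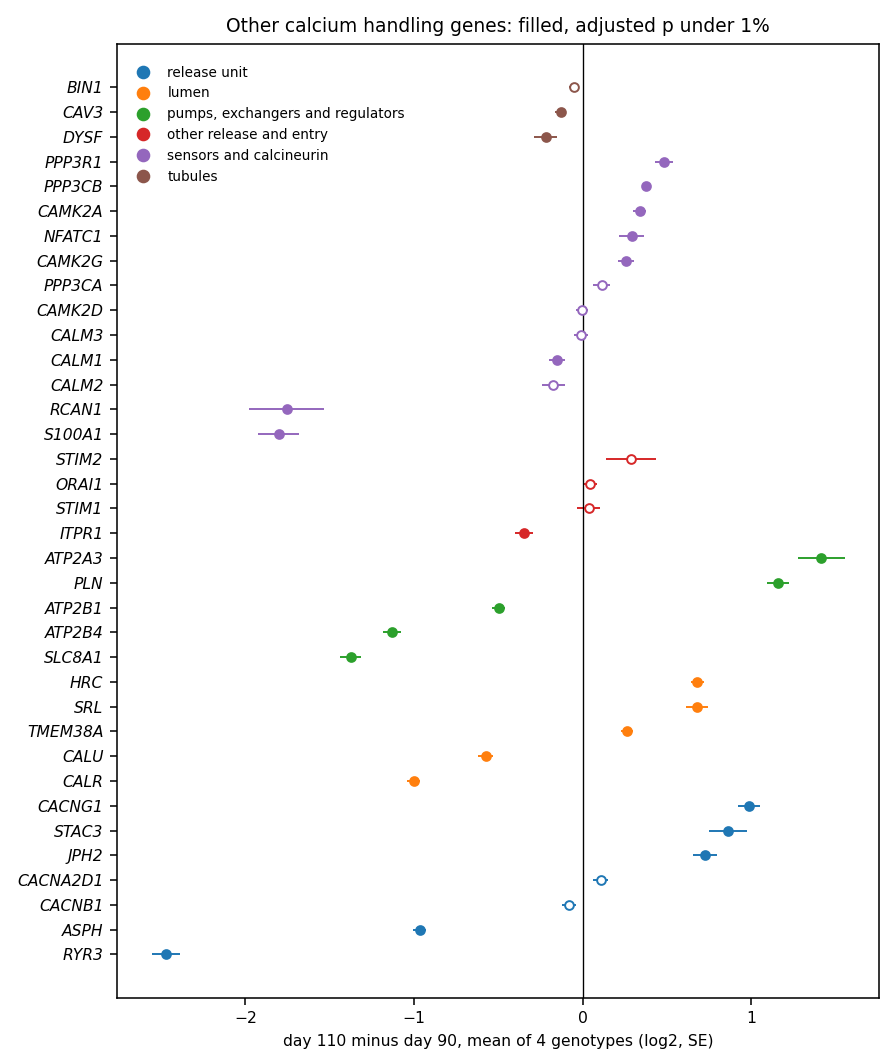
Age change averaged over the 4 genotypes (day 110 minus day 90, log2, bars are SE) of 36 of the other calcium handling genes with a kept probe, coloured by role, with filled points where the adjusted p was below 1%. Points lie on both sides of 0, from RYR3 at -2.47 to ATP2A3 at 1.42.

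Between the breeds, 19 of these 37 genes differed at day 110, 12 higher and 7 lower in MS, where 29.0% of all kept probes were called. Higher were ATP2A3 (1.78), STAC3 (0.81), JPH2 (0.58), HRC (0.41), TMEM38A (0.40) and DYSF (0.45), and among the sensors CAMK2G (0.74), CAMK2A (0.37) and CALM3 (0.47) and the calcineurin subunits PPP3R1 (0.56), PPP3CA (0.43) and PPP3CB (0.24). Lower were RCAN1 (-1.55), SRL (-1.19), ATP2B4 (-0.63), CAV3 (-0.47), ASPH (-0.42), CALR (-0.33) and CACNB1, the beta subunit of the voltage sensor (-0.26). At day 90, 5 were higher and 2 lower, where 12.8% of all kept probes were called, and SRL had the largest difference, -1.78 ± 0.13 (limma, adjusted p = 9.6e-17). SRL was the only one of the 37 with a called rise with age that was lower in MS at both days. The age change itself differed between MS and LW for CAMK2G (0.70) and CALM3 (0.42), which changed more towards higher values in MS, and for CALR (-0.45), that is for 3 of 37 where 5.95% of all kept probes were called.

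Once group and slide means were removed, the 9 main probes still varied in part together from fetus to fetus. Over the 36 pairs the median correlation of the deviations was 0.21 over the 61 fetuses, from -0.24 to 0.49, and 27 pairs were positive. With the slide means kept the median was 0.32. The highest values were 0.49 for ATP2A1 with CASQ1, 0.48 for RYR1 with CASQ1 and 0.47 for CASQ1 with CASQ2. These deviations share an array and its normalization and are given as a description. Pairs of other probes were not set beside them, so whether members vary together more than other probes was not tested. The named genes most like each member in these deviations were USF2, SLC25A37 and DPF3 for RYR1 (0.77, 0.77 and 0.76), TBP10 for CACNA1S (0.65), CCBL2, CFL2 and NDUFB6 for TRDN (0.72, 0.71 and 0.70), and LRRK2, CSTF2T and ZNF652 for JPH1 (0.65, 0.62 and 0.62). They were NDUFB11, ZFP91 and TCAP for ATP2A1 (0.66, 0.65 and 0.64), ITM2B, LPL and TMEM126B for ATP2A2 (0.65, 0.65 and 0.62), HOPX, DPYD and PNPLA2 for SLN (0.77, 0.68 and 0.65), MRPL51, ACTA2 and FAM98A for CASQ1 (0.76, 0.74 and 0.74) and MYL1, CFL2 and UQCC for CASQ2 (0.76, 0.73 and 0.73). CFL2, a cofilin of muscle, was named for both TRDN and CASQ2. With the slide means kept the value was 0.09 for ACTA2 with CASQ1, 0.29 for TCAP with ATP2A1 and 0.52 for FAM98A with CASQ1.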

How the data were processed

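Per the labels and methods, the RNA of 61 fetal longissimus muscles was hybridized to 1-colour Agilent porcine arrays and read with Agilent Feature Extraction 10.10.1.1, a version given in the submitters' processing notes. For each fetus the authors deposited scanner output holding intensity values not yet normalized between arrays, together with 1 table of their own quantile normalized log2 values. A genome build is not given in the sources used here, and probes were not placed on a genome.

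From the background-corrected intensity, controls were dropped, non-uniform spots (4 to 802 on an array) were treated as missing, arrays were quantile normalized and values log2 transformed. A probe was kept if 80% or more of the arrays of any group read it well above background (42436 of 60305). The 8 groups were fitted together with limma 3.58.1 in R 4.3.3. The random sow effect of the study was left out because the labels do not give the sow. Contrasts were called at a Benjamini-Hochberg adjusted p below 1%, two-sided, over all kept probes. The number of arrays limits the precision. The 8 slides held fetuses of 6 to 8 groups each.

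The members and the lists of other genes and markers were chosen with earlier results of these data known. All members are named, with their probes singly or as a range. The main probe of a gene is the kept one with the highest mean over all arrays. Of the list of other calcium genes, those called between MS and LW at day 110 or in the age-change difference are named, and for each role the 2 with the largest called age changes. For likeness, the 3 named genes with the highest correlation are given, except that some genes are not reported here. Other genes named within these lists were chosen after their values were seen. The tests across all probes were checked on simulated data.

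The alternatives used the median signal, the deposited log2 values, normexp background correction (offset 50), scaling to the 75th percentile, no filter or a stricter one, the slide as a block, non-uniform spots kept, no moderation, LW and MS fetuses only, the mean of all kept probes of a gene, a 5% threshold, AIC and each MSLW fetus of day 110 left out. Added after seeing the data were the mean without the opposite-strand probes A_72_P141731 and O1789, and the omission of the array with the fewest probes above background. Identifiers of the deposited log2 table matched the row number in the scanner file (within-array Spearman correlation 0.995 to 0.999).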

Additional observations from a re-analysis of the deposited data

Results flagged for a closer look

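Of 72 combinations of a group and a main probe, 5 had a fetus far from the others of its group by Dixon's test, which chance alone gives in about 1 of 20. The highest MS fetus of day 110 for RYR1 lay at 15.35 with the next at 14.93, and the lowest LW fetus of day 90 lay at 14.19 with the next at 14.50. The lowest LWMS fetus of day 90 for ATP2A2 lay at 13.82 (next 14.13), and that for SLN at 17.40 (next 17.58). The highest MSLW fetus of day 90 for CASQ2 lay at 15.07 (next 14.60).

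By limma's test of the difference, 2 of the 54 kept probes changed unequally with age in MS and LW, a share below the 5.95% of all kept probes. The difference, MS minus LW, was -0.45 for the ATP2A1 probe A_72_P263042, with the smaller rise in MS, and this call was lost with the 75th percentile scaling (-0.02), with the means over probes (-0.20 and -0.15) and with LW and MS fetuses alone (adjusted p = 0.012). It was 1.12 for the ATP2A2 probe A_72_P444260, which rose in MS and was not called in LW. The ATP2A1 probe came from the study's lists of probes with an interaction alone, so its call is not independent of that selection.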

How the results depend on the processing

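Over the alternatives, 6 to 9 main probes were called with age in the mean of the genotypes, against 8. Of 126 member differences, the 75th percentile scaling moved 23 across the threshold or turned them, the means over probes 8 each, the 5% threshold 6, and each other alternative 0 to 5. That scaling turned the RYR1 change in LW to 0.36 and the CASQ2 change in MS to 0.56. It left 2 members called between MS and LW at day 90, 8 at day 110 and 2 for the difference of the age changes, with 4 genes of the calcium list at day 90, 1 for the maternal interaction, and -0.34 for ATP2A1 minus ATP2A2 at day 110 (adjusted exact p = 0.0261). The median signal, the deposited values, the normexp correction and the use of non-uniform spots left 3 members at day 90. The mean of all kept probes, with or without opposite-strand probes, gave 8 members at day 110 and 0 for the difference of the age changes, as did LW and MS fetuses alone for the latter (0). The maternal interaction called 1 member with the slide as a block or at 5%. The calcium list had 7 genes with a difference of the age changes with the slide as a block and 9 at 5%, 11 between the breeds at day 90 at 5%, and 4 without the array with the fewest probes above background. For the paternal interaction it had 0 without that array, without the filter and with the median signal, the deposited values or normexp. With each MSLW fetus of day 110 left out, the calcium list had 0 to 1 genes for the paternal interaction and 0 to 3 for the maternal one, and the latter was 0 without replicate 3. AIC placed 4 members in the interaction model and 0 in that of genotype alone. ATP2A1 minus ATP2A2 between the breeds at day 90 was called with the median signal and the deposited values (0.28 in both) and with slide means removed (0.24, adjusted exact p = 0.00215). The median correlation of the deviations was 0.32 with slide means kept. Of these changes the cause was not tested.

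Replicate numbers only name fetuses in order and the sow is not given, so fetuses were matched by slide alone, and the slide as a block moved 3 of the 126 member differences. The number of arrays and, for PVALB, O1789 and a CASQ1 probe, the signal over background limited the measurements.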

Other observations

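Markers of fibre maturation and of other cells moved with age too, and these values belong to no comparison above. Averaged over the genotypes, embryonic myosin MYH3 fell by 2.57 between day 90 and day 110 on the log2 scale, and TNNT2, the cardiac troponin T also made in immature muscle, fell by 3.09. The other cardiac markers, NPPA and TNNI3, were called higher. Of the 5 skeletal muscle markers 3 were called higher and MYH3 alone lower. The adult fast myosins MYH1 and MYH4 rose by 1.43 and 1.75. VWF, an endothelial marker, rose by 1.29 and the other 3 called endothelial markers fell. Of the 2 markers of muscle stem cells, PAX7 rose by 0.96 and MYF5 changed by -0.29, which was not called (limma, adjusted p = 0.0848).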
